A study of Mesocricetus auratus with 7 samples.

Results

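Kif2a, Zfhx3, Nacc1 and Mtmr14 are 4 transcripts of golden hamster (Mesocricetus auratus) oocytes. They were among the 1929 most read rows of every library, and were higher in all libraries of Mov10l1 mutant females than in all others. They are 4 of the 22285 genes counted. They were chosen by their measured levels, as counts per library total, in all 7 libraries, so that their difference between the mutants and the other animals is given as a description, without a test. The rows were ENSMAUG00000000851 (Kif2a), ENSMAUG00000000602 (Zfhx3), ENSMAUG00000004663 (Nacc1) and ENSMAUG00000018826 (Mtmr14). The count table does not pair identifiers with symbols. The symbols come from the study's published lists of changed genes in oocytes and testes, of which only the names were used, and other rows have no name here.

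The libraries were made from RNA of 6 to 12 fully grown germinal vesicle (GV) oocytes (extracted as total RNA, with the molecule labelled polyA RNA), which are held in the first meiotic arrest before ovulation. They came from wild-type females (WT, n = 2, 17 and 37 weeks old), heterozygotes (HET, n = 2, 36 and 40 weeks) and homozygous mutants (KO, n = 3, 36 to 45 weeks). WT 2 was the animal of 17 weeks. The mutant allele lacks exon 20 of Mov10l1, which encodes part of an RNA helicase needed to make piRNAs. These are short germline RNAs that lead PIWI proteins to transcripts of transposons. HET and KO animals carry the same deletion, transmitted by 1 founder female and crossed to outbred animals for 2 generations. Every cell of the animal carries the allele. The comparison addressed how the stored mRNA of oocytes without intact MOV10L1 differs before ovulation.

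The deletion was cut with pairs of guide RNAs against both flanking introns. Their target sequences are shown because they define the allele that separates the groups.
intron 19 target 1: gggtatcacatgacttgggg
intron 19 target 2: ggtgttgggatcatagtgggg
intron 20 target 1: tctccactcttccatgtgggg
intron 20 target 2: taccattacatttgtcagggg

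The proteins encoded by these transcripts work in different places. KIF2A belongs to the kinesin family but does not walk along microtubules. It removes tubulin from microtubule ends and acts at the poles of the spindle. ZFHX3 is a very large nuclear protein with zinc fingers and homeodomains that regulates transcription. NACC1 is a nuclear protein with a BTB/POZ domain that acts with other regulators of transcription and is known from pluripotent cells. MTMR14 is a lipid phosphatase of the myotubularin group that acts on membrane phosphoinositides and has been linked to autophagy. A fully grown oocyte is transcriptionally silent or nearly so, and the mRNA stored in it serves meiotic maturation and the first divisions of the embryo.

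Total estimated counts were 24242442 to 33956304 per library, and KO totals (25960511 to 33956304) overlapped those of WT and HET. Mov10l1, the targeted gene, had 13.8 and 36.2 CPM (counts scaled to a library total of 1000000) in the WT libraries, 15.9 and 18.8 in the HET libraries, and 4.60, 6.40 and 3.26 in KO 1, KO 2 and KO 3, in the direction of the labels in every KO library. Of 16 oocyte markers listed for a check of the tissue, 4 could be tied to a row (Nobox, Kit, Ddx4 and Dazl). Their summed level was 1054 to 1081 CPM in WT, 937.5 to 1165 in HET and 882 to 917.5 in KO, so that all KO libraries lay below the others. This order came from Ddx4, at 415 to 529 CPM in KO and 553 to 663 CPM in the other libraries, whereas the sums of the remaining markers overlapped (356 to 467 CPM in KO and 385 to 502 CPM in the others). The part of this in the differences below was not tested. In pools of oocytes, fewer cells of a type and less RNA per cell cannot be told apart. The 4 markers of granulosa and cumulus cells that could be tied to a row, of 14 (Inha, Inhba, Fst and Kitl), summed to 1.50 to 2.27 CPM in WT, 0.505 to 13.8 in HET and 2.98 to 13.8 in KO. Most of the 13.8 CPM in HET 3 and in KO 2 was Inhba, at 13.8 and 12.6 CPM. Col1a1, the marker of stroma that could be tied to a row, was at 0 in all libraries but HET 2, where it had 0.132 CPM, and none of the 4 markers of blood cells could be tied to a row.

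Kif2a was the transcript with the highest ratio of KO to WT among these 4. Its level was 324 CPM in WT 1 and 262 in WT 2, 227 in HET 2 and 496 in HET 3, and 910.0, 926 and 937 in KO 1, KO 2 and KO 3. The KO libraries lay close together and far above the rest, and the nearest of the others was HET 3. Behind these values were 6866 to 13859 reads in WT and HET libraries and 23623 to 31460 in KO. On average, Kif2a was at 293 ± 43.8 CPM in WT (SD, n = 2), 362 ± 190 CPM in HET (SD, n = 2) and 925 ± 13.7 CPM in KO (SD, n = 3). This put KO at 3.15 times WT and 2.56 times HET. HET 3 weighed on the latter, which was 4.07 without it and 1.86 without HET 2.

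Zfhx3 was read most often of the 4 transcripts, although reads were not set per length and do not rank transcripts by level. Its level was 829.5 CPM in WT 1, 821 in WT 2, 660 in HET 2 and 825 in HET 3, against 1800, 1598 and 1690 in KO 1, KO 2 and KO 3. WT 1, WT 2 and HET 3 were nearly equal and HET 2 was lower, whereas the lowest KO library was 1.93 times the highest of these. On average, Zfhx3 was at 825 ± 5.76 CPM in WT (SD, n = 2), 742 ± 117 CPM in HET (SD, n = 2) and 1696 ± 101 CPM in KO (SD, n = 3). The ratio of these means was 2.05 for KO to WT and 2.29 for KO to HET.

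Nacc1 had the widest gap between KO and the others. There were 180 CPM in WT 1, 184 in WT 2, 178 in HET 2 and 133 in HET 3, against 488, 483 and 545 in KO 1, KO 2 and KO 3. Even the lowest KO library, KO 2, was 2.63 times the highest of the others, WT 2. On average, Nacc1 was at 182 ± 2.58 CPM in WT (SD, n = 2), 155 ± 32.5 CPM in HET (SD, n = 2) and 505 ± 34.4 CPM in KO (SD, n = 3). Its mean ratio was 2.77 against WT and 3.25 against HET.

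Mtmr14 differed least. WT 1 had 115 CPM, WT 2 had 98.7, HET 2 had 77.0 and HET 3 had 104, and KO 1, KO 2 and KO 3 had 181, 199 and 176. The KO libraries again lay apart, but the lowest of them was 1.53 times the highest of the others. On average, Mtmr14 was at 107 ± 11.8 CPM in WT (SD, n = 2), 90.4 ± 18.9 CPM in HET (SD, n = 2) and 186 ± 12.0 CPM in KO (SD, n = 3). Its mean ratio was 1.73 against WT and 2.05 against HET.

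**Figure D1:**
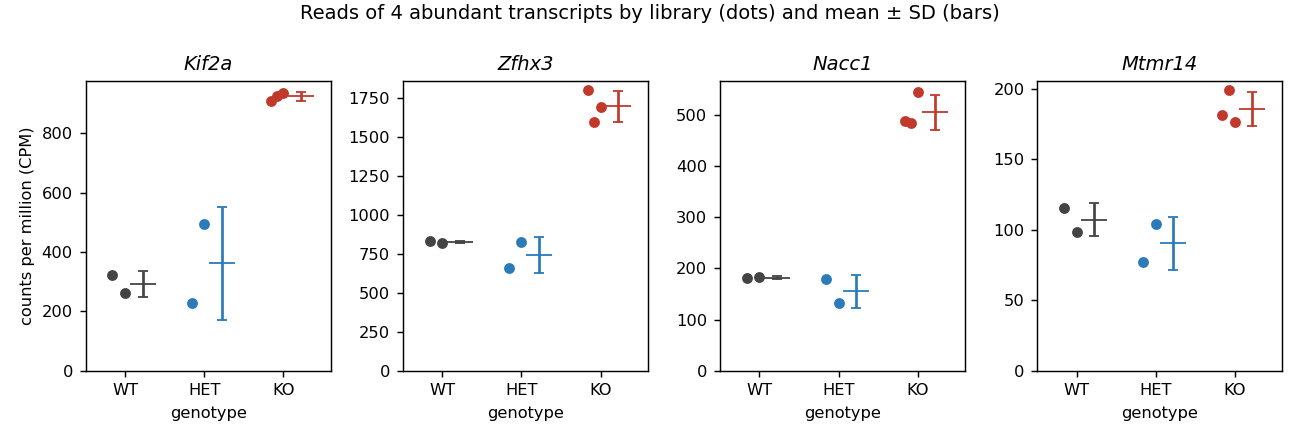
Level of each transcript in CPM (y axis, from 0, with its own range in each panel) by genotype (x axis). Dots are libraries, 2 WT, 2 HET and 3 KO, and bars are the mean ± SD; in each panel all 3 KO dots lie above all 4 others, and HET 3 is the nearest to KO for Kif2a only.

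In all, the 4 transcripts took 0.137 to 0.145% of the reads in WT, 0.114 and 0.156% in HET and 0.321 to 0.338% in KO. Ranked by reads within a library, Kif2a was at places 371 to 782 in WT and HET and at places 149 to 154 in KO. Mtmr14, the least read of the 4, was at places 1532 to 1929 in WT and HET and 921 to 1035 in KO. In the fitted model the log2 difference of KO from WT was 1.73 for Kif2a, 1.12 for Zfhx3, 1.55 for Nacc1 and 0.87 for Mtmr14. The median over the 7389 rows whose mean normalised count was 100 or more was −0.015. The choice of the transcripts favoured differences above this median, so that they are given as a description. Without WT 2, the young animal, the ratio of KO to WT was 2.85 for Kif2a, 2.04 for Zfhx3, 2.80 for Nacc1 and 1.61 for Mtmr14.

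All 4 had every KO library above every WT and HET library, which the choice of the transcripts fixes. Among the 1309 rows with a mean at least that of Mtmr14 (136 CPM), 36 rows (2.75%) had this order, and among the 5500 rows with a mean of at least 10 CPM it was 118 (2.15%). Nothing about the 4 transcripts can be read from these shares, which only give the background. The ratio of the lowest KO library to the highest of the others was 2.63 for Nacc1, 1.93 for Zfhx3, 1.83 for Kif2a and 1.53 for Mtmr14. Just below them among the 1309 rows was 1.26 for Abi2, which encodes an adaptor of the actin cytoskeleton. The cut is set by the mean of Mtmr14, which reaches it through the KO libraries. Among the 5500 rows with a mean of at least 10 CPM, 6 rows, of which 3 were chosen transcripts, had a higher ratio than Mtmr14, the others being Tmem39a (12.2), Gbp7 (2.16) and Pdzrn4 (1.94), and the next below was Znf720 (1.47). Pdzrn4 and Znf720 are named for these values. Abi2 had 106 and 108 CPM in the WT libraries, 113 and 129 in the HET libraries, and 162, 210 and 177 in KO 1, KO 2 and KO 3.

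**Figure D2:**
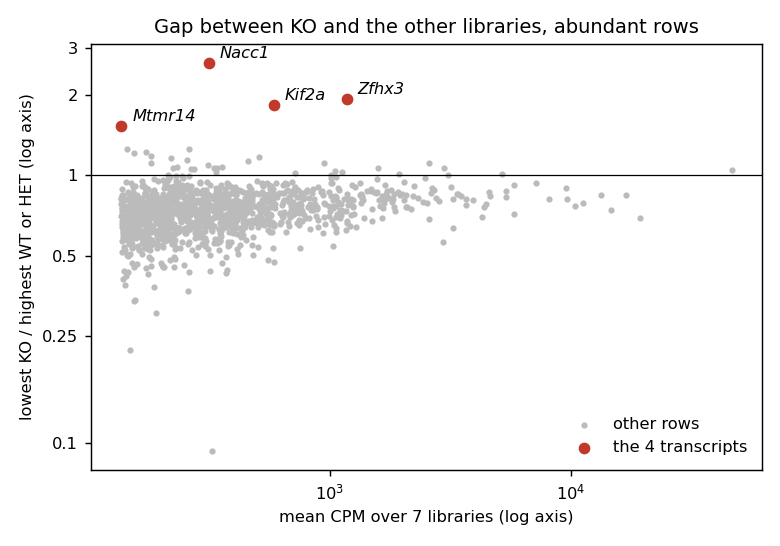
Ratio of the lowest KO library to the highest WT or HET library (y axis, log) against the mean level in CPM (x axis, log) for the 1309 rows with a mean of at least that of Mtmr14. Red points are the 4 transcripts, grey points the other rows and the line a ratio of 1; the red points, between 1.53 and 2.63, are those chosen for this gap, and the highest grey point is at 1.26.

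The spread between animals of a genotype differed among the 4 transcripts. For Kif2a the coefficient of variation was 14.9% in WT, 52.6% in HET and 1.49% in KO. Under the other scalings it was 17.6 to 18.7% in WT, 45.6 to 46.5% in HET and 0.666 to 1.37% in KO. Among 536 rows with a mean over all 7 libraries between 0.5 and 2 times that of Kif2a, the median was 14.6% in HET and 8.64% in KO. Of these rows, 0.746% had a larger spread than Kif2a in HET. With rows matched on the mean of HET alone, which was added after seeing the data, the share was 0.935% of 856 rows, and 1.61 to 1.84% under the other scalings. The spread in KO is a description, since the choice of transcripts used the KO values and favours a narrow KO group. Counting of reads alone would give 0.608% in KO. Copies made during amplification are not independent, so that this figure covers counting error only.

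Zfhx3 and Nacc1 differed little between the WT animals, by a coefficient of variation of 0.698% and 1.41%, in CPM. This depended on the scaling, with 3.44 to 4.53% for Zfhx3 and 1.33 to 2.42% for Nacc1 under the other scalings. In KO they varied by 5.96% and 6.81%, and in HET by 15.7% and 20.9%. Under the other scalings the spread in HET was 7.82 to 8.79% for Zfhx3 and 27.7 to 28.6% for Nacc1. In KO the other scalings gave 5.73 to 6.69% for Zfhx3 and 6.23 to 6.3% for Nacc1. Mtmr14 varied by 11.1% in WT, 21.0% in HET and 6.49% in KO. The other scalings gave it 13.8 to 14.9% in WT, 13.1 to 14.1% in HET and 6.42 to 7.05% in KO. Each value in WT and HET rests on 2 animals. In CPM, 46.8%, 42.0% and 47.9% of the rows matched on the HET mean had a larger spread in HET than Zfhx3, Nacc1 and Mtmr14.

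**Figure D3:**
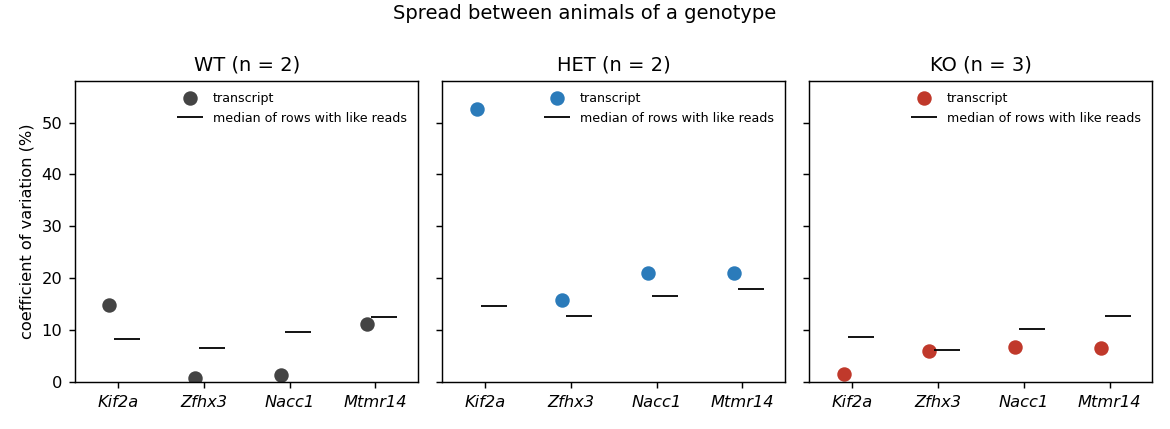
Coefficient of variation between animals (y axis, percent, from 0) of each transcript (dots, x axis) in WT, HET and KO, beside the median of rows whose mean over all 7 libraries is 0.5 to 2 times as high (dashes). Kif2a is at 52.6% in HET, against a median of 14.6%, and at 1.49% in KO, against 8.64%.

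Relative to its own WT mean, each transcript had its own order over the libraries. In HET 3, Kif2a was at 1.69, Zfhx3 at 0.999, Mtmr14 at 0.969 and Nacc1 at 0.727. In HET 2 they were at 0.775, 0.799, 0.719 and 0.979, in the same order. The HET animals thus differed 2.18-fold in Kif2a, upwards from HET 2 to HET 3, and in Nacc1 the other way, with HET 3 at 0.743 of HET 2. Gene length cancels when the reads of a pair of transcripts are set as a ratio and compared between libraries. Kif2a had 1.72 to 1.92 reads for each read of Nacc1 in KO, 1.42 and 1.80 in WT, 1.27 in HET 2 and 3.75 in HET 3. It had 4.65 to 5.32 reads for each of Mtmr14 in KO and 4.78 in HET 3, but 2.66 to 2.95 in the WT libraries and HET 2. In HET 3 the ratio of Kif2a to Mtmr14 thus lay within the range of the KO libraries, and its ratio to Nacc1 lay above all other libraries.

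The rows whose log2(CPM + 1) values were most like each transcript over the 7 libraries were sought among 5500 rows with a mean of at least 10 CPM. Correlations over libraries that fall into a KO cluster and the rest can carry that difference alone, and they are given as a description. Kif2a was most like Vps13d (r = 0.987, 7 libraries), which encodes a lipid transfer protein, and ENSMAUG00000001546 (r = 0.986). Vps13d had 108 and 94.0 CPM in WT, 93.0 in HET 2, 161 in HET 3, and 196, 204 and 218 in KO. It shared with Kif2a the position of HET 3, between KO and the other libraries.

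Nacc1 was most like Tmem39a (r = 0.980, 7 libraries), which encodes a membrane protein of the endoplasmic reticulum, and Zfhx3 (r = 0.951). Tmem39a was scarce outside KO, with 3.09 and 7.83 CPM in WT and 12.0 and 1.22 in HET, and had 153, 147 and 172 in KO. Like Nacc1, it was lower in HET 3 than in HET 2 and highest in KO 3. Zfhx3 was most like ENSMAUG00000010160 (r = 0.980) and Gbp7 (r = 0.974), the gene of a guanylate-binding GTPase. Gbp7 had 4.80 to 8.14 CPM in WT and HET libraries and 17.6 to 24.4 in KO. Mtmr14 was most like the same ENSMAUG00000010160 (r = 0.988) and Zfhx3 (r = 0.971). That row differed little between genotypes, with a mean of 1024 CPM in KO against 893 in WT and 874 in HET. Among the 4 transcripts themselves, r was 0.844 for Kif2a and Nacc1 and between 0.903 and 0.971 for the other pairs.

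**Figure D4:**
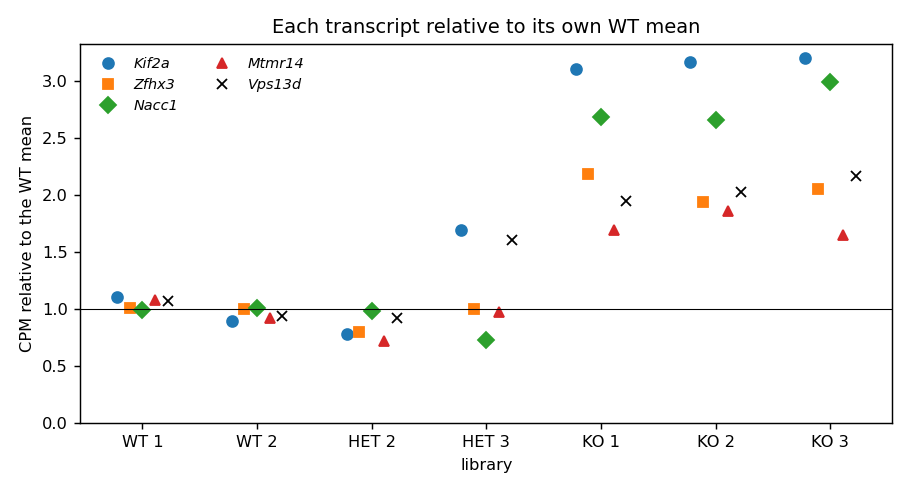
Level of each transcript divided by its own WT mean (y axis, from 0) in the 7 libraries (x axis), with Vps13d, the row most like Kif2a. In HET 3, Kif2a is at 1.69 while Nacc1 is at 0.727, and in KO the 4 transcripts lie between 1.64 and 3.20.

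The choice of the transcripts did not compare HET with WT, so that this difference could be tested, but it kept every HET and WT library below every KO library. A transcript with a HET level as high as in KO could not have been chosen, which limits the test. The comparison addressed whether 1 mutant allele goes with a difference in these transcripts. None of the 4 was called by DESeq2 at an adjusted p under 0.01, over 11275 rows tested, of which 50 were called (0.443%). None had an unadjusted p under 0.05, against 7.44% of all rows with a p, and edgeR, which called 1 of 11220 rows, called none of the 4. The log2 difference of HET from WT was 0.31 for Kif2a (95% interval −0.28 to 0.89, DESeq2 adjusted p 0.877). For Zfhx3 it was −0.13 (−0.46 to 0.20, DESeq2 adjusted p 0.932). For Nacc1 it was −0.19 (−0.64 to 0.27, DESeq2 adjusted p 0.919) and for Mtmr14 −0.23 (−0.66 to 0.21, DESeq2 adjusted p 0.878). These intervals do not show that HET and WT were alike, since that of Kif2a still holds a log2 difference of 0.89.

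The direction between HET and WT rested on single animals for Kif2a and Nacc1. Without HET 3, Kif2a was −0.27 and Nacc1 0.07 on the log2 scale, in the opposite direction (DESeq2 adjusted p 0.743 and 0.965). Without HET 2, Kif2a was 0.72 (DESeq2 adjusted p 0.0319) and Nacc1 −0.50 (DESeq2 adjusted p 0.120). In these fits the lone HET library was assumed to vary like the other genotypes. Over the 15 alternatives the adjusted p of Kif2a was 0.0319 to 1.0 and that of Nacc1 0.12 to 1.0. In CPM the HET and WT libraries overlapped for Kif2a, Zfhx3 and Mtmr14, whereas for Nacc1 both HET libraries were below both WT libraries. That order was lost under each of the 3 other scalings, in which HET 2 was at 1.05 to 1.07 of the WT mean of Nacc1. Zfhx3 had it with the total without the 20 most read rows. Of the 1309 rows of at least the mean of Mtmr14, 14.6% had that order in CPM, and in 22.1% the HET and WT libraries did not overlap in either direction.

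**Figure D5:**
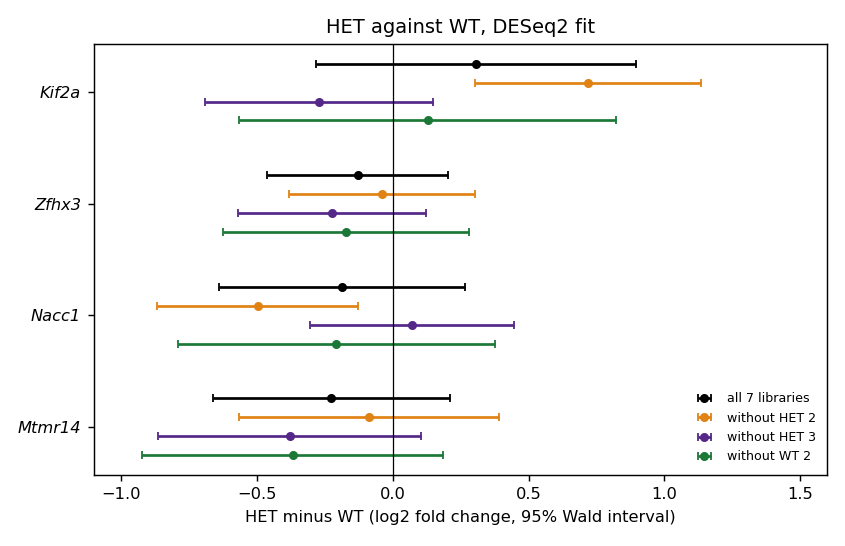
Log2 fold change of HET against WT (x axis) with its 95% Wald interval for each transcript (y axis), from all 7 libraries and from fits that leave out HET 2, HET 3 or WT 2. With all libraries each interval spans 0; Kif2a lies at 0.72 without HET 2 and at −0.27 without HET 3.

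Few relatives of these genes could be tied to a row, since names came from lists of changed genes, which were partly chosen on these samples. Kif22, which encodes a chromosome-bound kinesin of the spindle, had 69.4 CPM in WT 1, 62.2 in WT 2, 52.2 in HET 2, 59.0 in HET 3 and 58.6, 48.1 and 40.5 in KO 1, KO 2 and KO 3. Its log2 difference of KO from WT was −0.34 (95% interval −0.85 to 0.16, DESeq2 adjusted p 0.771). Mtmr7, a phosphatase of the same group as Mtmr14, had 91.0 CPM in WT 1, 148 in WT 2, 103 in HET 2, 98.0 in HET 3 and 130, 76.6 and 109 in KO 1, KO 2 and KO 3. The genotypes overlapped, with a log2 difference of KO from WT of −0.09 (−0.67 to 0.49, DESeq2 adjusted p 0.984). Neither was called in KO against WT, where 0.508% of 12407 rows were called. Zbtb16, another BTB/POZ factor, had 0 counts in all 7 libraries, which allows up to 0.0883 to 0.124 CPM (3 counts) in a library.

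Of 21 genes of the piRNA pathway, 16 could be tied to a row. Between KO and WT, 1 of the 16 was called lower by DESeq2, which was Mov10l1 itself, and 0 were called higher. An unadjusted p under 0.05 was found for 5 of the 16 (31.2%), against 7.43% of all rows with a p. Of the 5, Mov10l1 and Piwil2 were lower in KO (log2 −2.29 and −2.73), and Piwil1, Piwil3 and Pnldc1 were higher (0.90, 0.54 and 0.52). All rows but Piwil3 were tied by lists of changed genes, partly chosen on these samples, and Mov10l1 is the targeted gene. The shares here and for HET below thus cannot be read against those of all rows. edgeR called 0 of the 16 and 1 of 11220 rows. Between HET and WT, 0 of the 16 were called by DESeq2 or edgeR, and 2 (12.5%) had an unadjusted p under 0.05, against the 7.44% of all rows above. The log2 difference of Mov10l1 in KO from WT was −2.29 (DESeq2 adjusted p 0.00262). Its call was lost with age as a covariate (−1.48, DESeq2 adjusted p 0.552), in a fit blocked by replicate number (DESeq2 adjusted p 0.0143) and without WT 2, KO 1 or KO 3 (DESeq2 adjusted p 0.364, 0.0262 and 0.0401), and Piwil1 was called higher without HET 2 in both comparisons and without HET 3 in KO against WT. The median log2 difference of the 16 was −0.039 in KO against WT.

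Reads that align to several places or overlap several genes had been divided, which leaves values that are not whole. Kif2a was whole in 6 of 7 libraries, Zfhx3 in 5, Mtmr14 in 3 and Nacc1 in 1. Among the 1309 rows of at least the mean of Mtmr14, 21.5% were whole in all 7 libraries and 7.03% in 1 of them. The values that were not whole, and so contain reads shared with other places, were those of Nacc1 in all libraries but KO 3, of Mtmr14 in the WT and HET libraries, of Zfhx3 in WT 2 and HET 2, and of Kif2a in HET 3. Reads were counted without regard to strand, so that a transcript from the opposite strand of these genes would be counted with them.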

How the data were processed

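Oocyte cDNA was amplified and sequenced as single-end reads by the authors, aligned to the MesAur1.0 assembly with STAR (version 2.7.3a) and counted over Ensembl exons with featureCounts (version 2.0.0). The deposited values are estimated counts, since reads with several alignments or genes were divided between them, and 10.2 to 11.8% of values were not whole. Molecular identifiers were not used. Libraries that the authors judged to be of poor quality were excluded by them and are not analysed here. Genotype, replicate number and age were taken from the labels. Animals are named as separate, but HET and KO animals descend from a single founder.

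CPM was computed from the total of each column. Counts were rounded, and HET was compared with WT by the two-sided Wald test of DESeq2 (version 1.42.0) in a fit of all 7 libraries with genotype as a factor, with Benjamini-Hochberg adjustment over all rows and a threshold of 0.01. The tool, adjustment and threshold are those of the study's methods. edgeR (version 4.0.16, quasi-likelihood test, TMM), other scalings, a filter of 10 counts in 3 libraries, age, a replicate block and leaving out each library were alternatives. In a single draw of counts simulated from the fitted dispersions, with some rows shifted in HET, DESeq2 made more false calls than its threshold allows. This bears on the number of genes called, but a single draw does not give the rate of false calls in these data. The 4 transcripts and the gene lists were chosen with earlier results of these data known. For each transcript, the 2 rows most like it were named by a fixed rule. The tests of relatives and of piRNA genes were added after seeing the data. Symbols came from the study's gene lists, which name 2 of 14 spindle motor genes, 0 of 14 partners of KIF2A at the spindle pole, 2 of 20 phosphoinositide enzymes, 2 of 12 BTB/POZ factors and 1 of 11 ZFHX and related factors, members included. None of 36133 RefSeq genes supplied carried an Ensembl identifier. Coordinates and sequences of the 4 genes were not used here.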

Additional observations from a re-analysis of the deposited data

How the results depend on the processing

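That the ratios of KO to WT and to HET stay above 1 with a library left out is fixed by the choice of the transcripts and is no sign of stability. The ratio of Zfhx3 in KO to WT was 2.19 with TMM scaling, a move larger than the spread between animals. The other ratios moved by less than that spread under the scalings tried. Leaving out 1 library gave ratios of KO to WT of 2.85 to 3.53 for Kif2a, 1.99 to 2.11 for Zfhx3, 2.66 to 2.83 for Nacc1 and 1.61 to 1.88 for Mtmr14. For KO to HET they were 1.86 to 4.07, 2.06 to 2.57, 2.83 to 3.81 and 1.79 to 2.41. The levels of the transcripts moved by −3.41 to 2.83% with the scaling, and the spreads within a genotype moved more, as given beside them. Between HET and WT, leaving out 1 library gave log2 differences of −0.27 to 0.72 for Kif2a, −0.22 to −0.04 for Zfhx3, −0.50 to 0.070 for Nacc1 and −0.38 to −0.06 for Mtmr14. Only the fit without HET 3 turned a direction, for Kif2a and Nacc1. None of the 4 was called under the 15 alternatives.

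The number of genes called between HET and WT (50) was 113 at an adjusted p under 0.05, 27 with the low-count filter, 30 with WT and HET only and 1 by edgeR, and leaving out 1 library gave 34 to 99, the latter without HET 2. With the replicate number as a block it was 57, and the log2 differences of HET from WT were 0.14 for Kif2a, −0.11 for Zfhx3, −0.15 for Nacc1 and −0.20 for Mtmr14, none of them called. Deviations of libraries of the same number from their genotype means correlated by −0.026 to 0.080 across 7389 rows in 5 pairs. With 2 libraries in WT and in HET these deviations mirror each other, and pairs of unlike number were not compared. Whether libraries of the same number are paired thus cannot be told from this. The sign of Kif22 in HET against WT turned with the block (0.0096), and that of Mtmr7 with age as a covariate (0.0052 in HET against WT and 0.163 in KO against WT). Leaving out 1 library gave −0.48 to 0.14 and −0.37 to 0.26 for Mtmr7 in these comparisons, above 0 without WT 2 in both and without KO 2 (0.09) in the latter. Neither was called. Mov10l1 was not called in KO against WT by edgeR, with age or with the block. By rank correlation, 1 of the 2 rows most like Kif2a and 0 of those of the other transcripts were kept. Of the 2 most like rows, 1 was kept for Kif2a and Nacc1 with a mean of at least 1 CPM, and 1 for Kif2a and Zfhx3 with size factors. The causes were not tested.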
